A study of Mus musculus with 68 samples.

Results

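The genes for translation initiation factors were followed through red cell formation in mouse bone marrow. Members were taken by symbol alone. Every symbol of the count tables that begins with Eif and a factor number from 1 to 6 was kept, except the eIF2 kinases (Eif2ak genes), Eif2s3x, Eif2s3y and pseudogenes. This gave 49 of 24059 genes, grouped by factor number as 5 genes of eIF1 and eIF1A, 9 of eIF2 and eIF2B, 14 of eIF3, 16 of eIF4, 4 of eIF5, eIF5A and eIF5B, and 1 of eIF6. The groups follow the number in the symbol alone. That of eIF2 and eIF2B thus also holds Eif2a and Eif2d, whose products are subunits of neither complex. That of eIF1 and eIF1A also holds Eif1ad.

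RNA came from bone marrow cells enriched by flow cytometry, as 68 total RNA libraries in a pair of series. The stage series holds BFU-E (n = 3) and CFU-E (n = 5), the early and late committed erythroid progenitors, then ERY-I (proerythroblasts, n = 7), ERY-II (basophilic, n = 4), ERY-III (polychromatic, n = 4) and ERY-IV (orthochromatic erythroblasts, n = 4), ERY-V (reticulocytes, n = 7) and ERY-VI (red blood cells, n = 4). In the knockout series each of 5 gates has 3 wild-type (WT) and 3 GS-KO libraries, the gates being BFU-E and CFU-E as above and then the pooled gates named ERY-I-II (proerythroblasts and basophilic erythroblasts), ERY-III-VI and ERY-V-VI (reticulocytes and red blood cells). The labels spell out neither GS nor the allele, what drives the deletion, the age or whether animals were pooled. GS is read here as glutamine synthetase, the product of Glul. The gate ERY-III-VI carries the source name of polychromatic and orthochromatic erythroblasts.

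Library totals were 1630863 to 11472763 counts for stages and 3131142 to 15806844 for the knockout libraries. Levels are given as CPM, counts scaled to a library total of 1000000. Summed erythroid markers (9 genes, globins included) went from 778 to 866 CPM in BFU-E to 476115 to 573629 CPM in ERY-VI, and progenitor markers (4 genes) from 1964 to 1976 CPM in BFU-E to 1.51 to 4.03 CPM in ERY-IV. The progenitor sum was 0.0 to 31.0 CPM (median 14.8) in ERY-V and 0.0 to 13.7 CPM (median 2.12) in ERY-VI. Of the stage libraries 12 held transcripts of Y-linked genes, namely replicates 1 to 3 of both progenitors, of ERY-I and of ERY-V, and the other 26 held Xist, while all 30 knockout libraries were Y-positive. Nothing in the labels says that replicates are separate animals, and the p-values rest on the spread among these libraries alone, part of which may be technical. In ERY-I the 9 neutrophil markers summed to 13822 to 14234 CPM in the 3 libraries with Y-linked transcripts and to 0.613 to 1260.1 CPM in the 4 with Xist. The sum was 2805 to 2848 CPM in the Y-positive ERY-V libraries and 3448 CPM in ERY-V replicate 5, which is Xist-positive, 2101 CPM in ERY-II replicate 2 and 1203 CPM in ERY-III replicate 2.

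Initiation factors place the ribosome on the start codon of an mRNA. eIF4E binds the cap, eIF4G is the scaffold and eIF4A the helicase, which eIF4B and eIF4H assist, and the 4E-BP proteins hold eIF4E away from eIF4G. eIF2 carries the initiator tRNA and is reloaded with GTP by eIF2B, eIF3 is a large scaffold on the small ribosomal subunit, eIF1 and eIF1A guard the choice of start codon, and eIF5 triggers GTP hydrolysis by eIF2. eIF5B joins the ribosomal subunits, eIF5A helps the ribosome through difficult peptide stretches, and eIF6 keeps the large subunit apart. In erythroblasts translation is tied to heme supply through the eIF2 kinase encoded by Eif2ak1, and reticulocytes go on making globin after the nucleus is lost.

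Of the 49 members 46 exceeded 1 CPM in the mean of at least 1 stage. Eif3j1 and Eif3j2, which encode the loosely bound eIF3j subunit, had 0 counts in every library, and Eif4e1b, an oocyte form of eIF4E, had 1 count in all. Eif3j1 and Eif3j2 are close copies of each other, as are Eif1a and Eif1ax, and a counter that drops reads of shared sequence can lower such values, so they are uncertain.

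By group means of CPM most initiation factor genes were highest in the progenitors and held a smaller share of the counts from ERY-I on, while Eif5, Eif1 and Eif5a2 went the other way. Of the 46 members 10 stood highest at BFU-E, 31 at CFU-E, 3 at ERY-I, 1 at ERY-III and 1 at ERY-V. Against BFU-E the mean was higher for 35 members in CFU-E, for 8 in ERY-I and for 3 in each of ERY-II, ERY-III, ERY-IV and ERY-V, the 3 being Eif1, Eif5 and Eif5a2 each time. In ERY-VI only Eif1 and Eif5 had a mean above BFU-E. Of all 12824 genes over 1 CPM in the mean of a stage, 41.9% stood highest at BFU-E, 24.4% at CFU-E and 18.2% at ERY-I, and the mean was above BFU-E for 41.3% in CFU-E, 39.1% in ERY-I, 22.6% in ERY-II and 17.9% in ERY-V. These are shares of a library's counts, and in bulk RNA fewer cells of a type and less RNA per cell cannot be told apart.

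**Figure D1:**
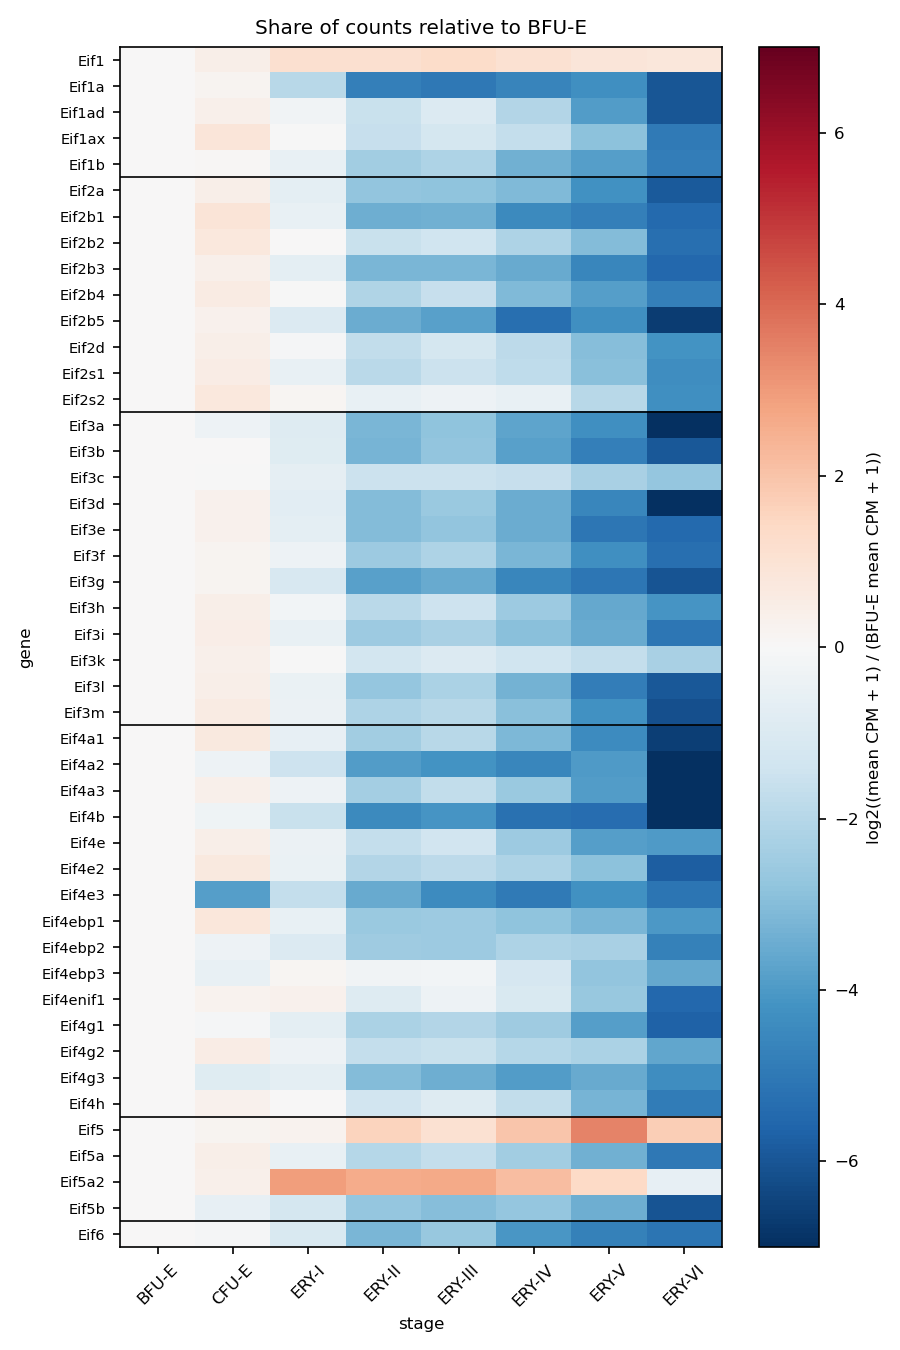
Mean level of each of the 46 detected members by stage, as log2 of (mean CPM + 1) over (mean BFU-E CPM + 1), with lines between factor numbers. CFU-E is the column with the most members above BFU-E (35 of 46), and from ERY-II on Eif5, Eif1 and Eif5a2 are the members above it up to ERY-V.

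Together the members took 17338 ± 71.0 CPM in BFU-E (mean ± SD, n = 3), 18754 ± 1318 in CFU-E (n = 5), 11271 ± 1243 in ERY-I (n = 7) and 4660.2 ± 316 in ERY-II (n = 4). The sum stayed near this level in ERY-III (4925 ± 539.9, n = 4) and ERY-IV (4309 ± 93.5, n = 4), stood at 6176 ± 2255 in ERY-V (n = 7) and at 2043 ± 1105 CPM in ERY-VI (n = 4). The ERY-V sum was 8422 to 8732 CPM in the 3 Y-positive libraries and 3493 to 5013 CPM in the 4 Xist-positive ones, a range that takes in the 4189 to 4386 CPM of ERY-IV, where all libraries are Xist-positive. Without Eif5 the sum was 3441 ± 599 CPM in ERY-II and 4078 ± 585 CPM in ERY-III, then 2749 ± 169.8 CPM in ERY-IV and 1666 ± 599 CPM in ERY-V, and 703 ± 477 CPM in ERY-VI.

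Eif5 lies at chr12:111538016-111546752 on the plus strand (mm10), Eif1 at chr11:100319885-100322096 (plus) and Eif5a2 at chr3:28781276-28798846 (plus). Eif4a1, a member that fell, lies at chr11:69666936-69672423 (minus). Their promoters are shown because the 3 members that rose can be set beside 1 of the many that fell. Each window runs from 250 bases before to 50 after the start of a RefSeq transcript (RefSeq, GRCm38.p6, the assembly of mm10), 5′ to 3′ on the gene's strand. Capitals mark CACGTG, an E-box that reads the same on both strands, and CCAAT on either strand (ATTGG where it is on the other).
Eif5, chr12:111537851-111538150 (+): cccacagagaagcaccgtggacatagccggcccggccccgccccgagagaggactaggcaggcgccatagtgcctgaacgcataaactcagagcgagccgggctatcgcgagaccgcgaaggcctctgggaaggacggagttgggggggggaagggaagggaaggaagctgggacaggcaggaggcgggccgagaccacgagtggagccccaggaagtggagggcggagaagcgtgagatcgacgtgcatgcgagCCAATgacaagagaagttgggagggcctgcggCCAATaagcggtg
Eif1, chr11:100319699-100319998 (+): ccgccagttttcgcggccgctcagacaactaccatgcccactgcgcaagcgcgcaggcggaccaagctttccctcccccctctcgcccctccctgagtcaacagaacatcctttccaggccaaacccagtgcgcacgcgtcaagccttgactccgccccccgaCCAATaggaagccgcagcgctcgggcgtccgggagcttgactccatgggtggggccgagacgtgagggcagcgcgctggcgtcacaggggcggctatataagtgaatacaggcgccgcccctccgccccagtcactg
Eif5a2, chr3:28781027-28781326 (+): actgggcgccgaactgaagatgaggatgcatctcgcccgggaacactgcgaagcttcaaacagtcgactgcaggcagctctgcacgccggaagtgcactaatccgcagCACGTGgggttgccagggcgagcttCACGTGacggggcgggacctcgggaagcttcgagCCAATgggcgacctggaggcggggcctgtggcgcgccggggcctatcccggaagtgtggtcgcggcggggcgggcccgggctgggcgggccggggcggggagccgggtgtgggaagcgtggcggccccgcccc
Eif4a1, chr11:69672374-69672673 (-): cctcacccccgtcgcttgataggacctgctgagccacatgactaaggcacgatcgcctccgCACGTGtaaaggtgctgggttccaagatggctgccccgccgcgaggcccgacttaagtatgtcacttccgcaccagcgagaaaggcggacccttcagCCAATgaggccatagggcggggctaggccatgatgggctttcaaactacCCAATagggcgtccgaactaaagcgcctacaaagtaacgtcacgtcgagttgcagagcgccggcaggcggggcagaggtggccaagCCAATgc
The Eif5a2 window holds 2 CACGTG and 1 CCAAT, that of Eif4a1 1 and 3, that of Eif5 0 and 2, and that of Eif1 0 and 1. RefSeq windows were found for 37 of the 49 members. Counting both strands, CACGTG stood in the windows of 10 of 37 member genes (27.0%), against 8.91% of 17491 protein-coding genes. The 10 were Eif1b, Eif3a, Eif3f, Eif3k, Eif4a1, Eif4e, Eif4g1, Eif4h, Eif5a and Eif5a2, so the motif was present in members that fell as well as in Eif5a2. CCAAT stood in 13 of 37 (35.1%, against 42.3%) and AGATAA, a form of the GATA motif, in 1 of 37 (2.7%, against 11.2%). TATAAA stood in 3 of 37 (8.11%, against 14.8%). No motif searched contains another, and median GC was 62.7% in member windows and 56.3% in windows of protein-coding genes.

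Eif5, the trigger of GTP hydrolysis by eIF2, was the member with the highest CPM in the reticulocyte gate. In BFU-E it stood at 408, 406 and 406 CPM, in CFU-E at 504, 512, 505, 454 and 369 CPM, and in ERY-I at 378 to 569 CPM (median 489). In ERY-II it was at 1158, 1005, 864 and 1851 CPM, in ERY-III at 634, 642, 945 and 1169, and in ERY-IV at 1312, 1481, 1724 and 1719.7. In ERY-V it reached 2787 to 6421 CPM (median 3675), and in ERY-VI it was at 675, 1073, 1458 and 2152 CPM. No ERY-II library fell within the ERY-I range, no ERY-IV library within that of ERY-III, and every ERY-V library lay above every library of any other stage. The Y-positive ERY-V libraries (6205, 6277 and 6421 CPM) were above the Xist-positive ones (2787 to 3675 CPM). The Y-positive libraries also held more neutrophil marker counts than 3 of the 4 Xist-positive ones, and the part of this in the Eif5 values was not tested.

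**Figure D2:**
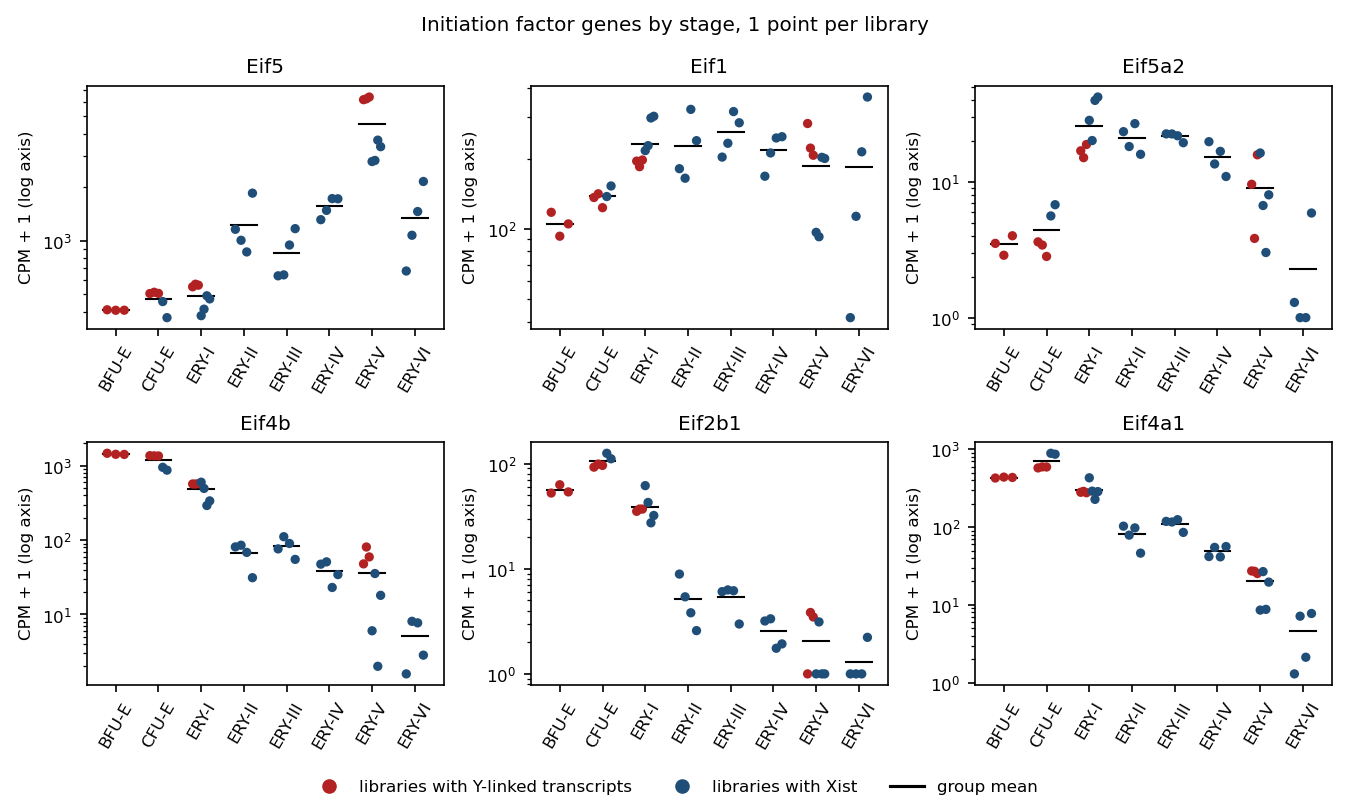
CPM + 1 on a log axis for Eif5, Eif1, Eif5a2, Eif4b, Eif2b1 and Eif4a1 in each library of the 8 stages, coloured by library set, with a black bar at the group mean. Eif5 stands at 369 to 569 CPM up to ERY-I and at 2787 to 6421 CPM in ERY-V, while Eif4b falls from 1422 to 1473 CPM in BFU-E to 30.3 to 84.5 CPM in ERY-II.

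Eif5 rose at 5 of the 7 steps between neighbouring stages. The values that follow are log2 fold changes ± SE from edgeR's quasi-likelihood test with TMM scaling, with Benjamini-Hochberg adjustment over all genes tested. The rise was 0.34 ± 0.11 from BFU-E to CFU-E (adjusted p = 0.0438) and 0.46 ± 0.15 from CFU-E to ERY-I (adjusted p = 0.0263), and at both of these steps the CPM ranges overlapped. It was 2.83 ± 0.34 from ERY-I to ERY-II (adjusted p = 0.000102), 1.48 ± 0.40 from ERY-III to ERY-IV (adjusted p = 0.0331) and 2.37 ± 0.39 from ERY-IV to ERY-V (adjusted p = 0.00283). The steps to ERY-II and ERY-V kept their calls without any 1 library and among Xist-positive libraries alone. The call at CFU-E ended without any BFU-E library or without CFU-E replicate 1, 2 or 3 (adjusted p = 0.0823 to 0.148). That at ERY-I ended without CFU-E replicate 1, 3 or 5 or ERY-I replicate 6 or 7 (0.051 to 0.095), and that at ERY-IV without ERY-III replicate 1, 2 or 3 or ERY-IV replicate 3 or 4 (0.0842 to 0.104). With library totals the steps to CFU-E and ERY-I were 0.20 and 0.08 (adjusted p = 0.26 and 0.676), and with no filter on low counts the adjusted p was 0.102 and 0.0822. Among Xist-positive libraries alone the step to ERY-I had an adjusted p of 0.103. A small RNA gene, Snora28 (chr12:111540941-111541067, plus), lies inside Eif5, and its own counts reached at most 7.32 CPM in the stage series.

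As a share of all counts of the 49 members, not corrected for length, Eif5 held 2.34 to 2.35% in BFU-E, 2.19 to 2.60% in CFU-E and 2.80 to 5.12% in ERY-I. It held 17.5 to 40.7% in ERY-II, 12.6 to 25.6% in ERY-III, 31.3 to 40.3% in ERY-IV, 66.0 to 79.8% in ERY-V and 62.1 to 74.3% in ERY-VI. In the reticulocyte and red cell gates most initiation factor counts thus came from this 1 gene, in every library.

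**Figure D3:**
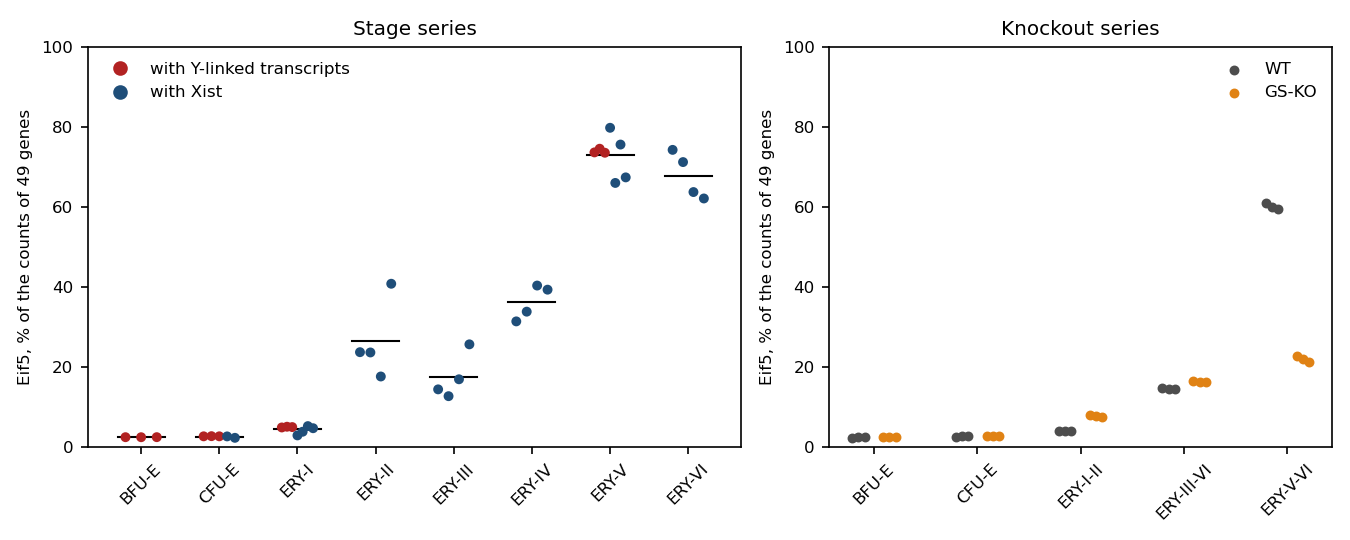
Share of the counts of all 49 members that belongs to Eif5, in percent, for each library of the stage series (left) and of the knockout series by gate and genotype (right). The share runs from 2.19 to 2.60% in CFU-E to 66.0 to 79.8% in ERY-V, and in ERY-V-VI it is 59.5 to 61.1% in WT and 21.2 to 22.7% in GS-KO.

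Eif1, whose product guards start codon choice, stood at 117, 92.0 and 104 CPM in BFU-E, at 135, 140.3, 122, 137 and 152 CPM in CFU-E and at 184 to 303 CPM (median 215) in ERY-I. Its ranges overlapped from there on, with 164 to 324 CPM in ERY-II, 202 to 317 in ERY-III, 167 to 247 in ERY-IV and 91.5 to 282 in ERY-V. In ERY-VI its 4 libraries spread from 40.6 to 366 CPM. The fold change was 0.54 ± 0.14 at CFU-E (adjusted p = 0.0148, lost without BFU-E replicate 2 or 3) and 1.19 ± 0.25 at ERY-I (adjusted p = 0.00191). At ERY-II TMM scaling gave 1.37 ± 0.34 (adjusted p = 0.00727) and library totals gave -0.03. At ERY-VI TMM gave 1.45 ± 0.41 (adjusted p = 0.04), library totals -0.03, and the call ended in 9 of 11 omissions of 1 library, all but those of ERY-V replicate 6 and ERY-VI replicate 1.

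Eif1a and Eif1ax encode the partner factor eIF1A. Eif1a stood at 95.1, 91.1 and 90.1 CPM in BFU-E, at 85.4 to 133 CPM in CFU-E, at 5.41 to 38.5 CPM (median 27.6) in ERY-I and at 1.97, 4.77, 1.87 and 0.789 CPM in ERY-II, with no overlap at either fall. It fell by 1.86 ± 0.29 at ERY-I (adjusted p = 0.000327) and by 2.02 ± 0.47 at ERY-II (adjusted p = 0.00499). Its X-linked copy Eif1ax stood at 92.7 to 99.2 CPM in BFU-E and 25.3 to 38.7 CPM in ERY-II and was not called at either of these steps. Its CPM nonetheless fell at each of them without overlap between groups. Of the counts of Eif1a and Eif1ax together, Eif1ax took 50.4 to 52.4% in BFU-E and 55.1 to 72.2% in CFU-E. It took 72.7 to 94.2% in ERY-I and 86.7 to 97.4% in ERY-II. Of the counts of Eif1 and Eif1a together, which leave out Eif1ax, Eif1 took 50.2 to 55.1% in BFU-E and 97.2 to 99.7% in ERY-II.

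Eif5a2 is the second gene for eIF5A, alongside Eif5a. It stood at 2.53, 1.88 and 3.01 CPM in BFU-E, at 2.62, 2.43, 1.83, 4.62 and 5.80 CPM in CFU-E and at 14.1 to 41.3 CPM (median 19.2) in ERY-I, and stayed at 15.0005 to 25.9 CPM in ERY-II and 18.5 to 21.6 CPM in ERY-III. Its rise from CFU-E to ERY-I, 3.32 ± 0.51 (adjusted p = 0.000258), was the largest of any member at that step and had no overlap between groups. Eif5a, at 901 to 951 CPM in BFU-E and 1087 to 1525 CPM in CFU-E, fell by 0.58 ± 0.20 at ERY-I (adjusted p = 0.0282) to 539 to 862 CPM. The share of Eif5a2 in the pair's counts thus went from 0.209 to 0.316% for BFU-E to 2.42 to 6.57% at ERY-I and 7.33 to 8.89% at ERY-II. In ERY-V its values were 2.02 to 15.4 CPM and in ERY-VI 2 of 4 libraries had 0 counts.

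The step from BFU-E to CFU-E was mostly a rise. Of 46 members tested 21 rose and 1 fell, where 18.2% of all genes tested rose and 19.1% fell. The member median was 0.50 on the log2 scale, against -0.01 for all genes. The eIF2 and eIF2B group led, with 7 of 9 up, among them 4 of the 5 eIF2B subunits. Eif2b1, the alpha subunit of eIF2B, stood at 51.4, 61.8 and 52.7 CPM in BFU-E and at 91.4, 97.9, 95.0, 124 and 110.0 CPM in CFU-E, without overlap (1.05 ± 0.16, adjusted p = 0.00158). Eif2s2, the beta subunit of eIF2, rose by 0.89 ± 0.21 (adjusted p = 0.0109, 0.0503 without BFU-E replicate 1), and Eif4ebp1, a 4E-BP, by 0.96 ± 0.24 (adjusted p = 0.0131, lost without BFU-E replicate 1 or 2). Of eIF4 members 7 of 15 rose and of eIF3 members 2 of 12. With library totals 16 members rose and 1 fell, and the share of all genes called under that scaling is not given here. The median was then 0.35 for members and -0.14 for all genes. The count was 9, 8 and 10 members without BFU-E replicate 1, 2 and 3, and 1 with each Y-positive triplicate summed, where 0.852% of all genes were called.

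The 1 member that fell was Eif4e3, a divergent form of the cap-binding protein, from 31.4 to 37.7 CPM in BFU-E to 0.400 to 2.84 CPM in CFU-E. It fell by 4.35 ± 0.37 on the log2 scale (adjusted p = 9.97e-05). In the separate WT libraries it fell by 5.24 ± 0.21 (adjusted p = 1.23e-41), from 25.6 to 31.9 CPM. At the ERY-I stage the 3 libraries with Y-linked transcripts, those with high neutrophil markers, held 20.7 to 23.5 CPM of it and the 4 with Xist 0 to 3.75 CPM. The part of the marker difference in these values was not tested.

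From CFU-E to ERY-I the members turned down. Of 46 tested 23 fell and 5 rose, where 20.9% of all genes fell and 25.4% rose. The 5 were Eif1, Eif4ebp3, Eif4enif1, Eif5 and Eif5a2. By factor 7 of 12 eIF3 members fell, 5 of 9 of the eIF2 and eIF2B group, 8 of 15 of eIF4, and Eif6. Under library totals 32 fell (33.2% of all genes) and 2 rose (16.2%), and the median of all genes moved from 0.05 to -0.30.

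At ERY-II 21 of 46 fell and 3 rose, where 25.1% of all genes fell and 20.2% rose. The 3 were Eif1, Eif4ebp3 and Eif5. With library totals 40 members fell (67.8% of all genes) and 1, Eif5, rose (4.1%), and the median of all genes moved from -0.35 to -1.68. The member median was -0.52 with TMM and -1.82 with library totals.

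At ERY-II 8 of 12 tested eIF3 subunits fell, after 7 of 12 at ERY-I, and none was called higher at either step. The ERY-II median was -0.93 with TMM and -2.26 with library totals. Eif3a, the largest subunit, stood at 3113, 3094 and 2873 CPM in BFU-E, at 3078, 3078, 3036, 1249 and 1229 CPM in CFU-E, at 1167 to 1943 CPM (median 1766) in ERY-I and at 433, 362, 318 and 183 CPM in ERY-II. The last 2 CFU-E values, of the Xist-positive libraries, lay within the ERY-I range, and Eif3a was not called until ERY-II (-1.003 ± 0.12, adjusted p = 0.000125). Eif3g, an RNA-binding subunit, fell by 0.96 ± 0.11 at ERY-I and by 1.43 ± 0.13 at ERY-II (adjusted p = 4.53e-05 and 4.37e-05), from 433 to 522 CPM in CFU-E to 13.4 to 37.8 CPM in ERY-II. Eif3c did not follow its group in all libraries. It stood at 184, 153, 515 and 456 CPM in ERY-II, at 176, 180.1, 531 and 436 in ERY-III, at 138, 129.6, 523 and 424 in ERY-IV and at 8.24, 18.5, 240.2 and 293 in ERY-VI. In each of these 4 gates replicates 1 and 2 were low and replicates 3 and 4 high, and the same order held for Eif2s2 in ERY-II (71.0, 68.3, 225 and 127 CPM).

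Subunits of the exchange factor eIF2B and of its substrate eIF2 are given side by side, and a difference between them was not tested. Eif2b1 went from 91.4 to 124 CPM in CFU-E to 26.3 to 60.7 CPM (median 35.9) in ERY-I and 7.89, 4.41, 2.81 and 1.58 CPM in ERY-II, a fall of 1.09 ± 0.17 and then of 1.96 ± 0.30 (adjusted p = 0.000309 and 0.000401). At ERY-I 3 of 5 eIF2B subunits fell and at ERY-II 4 of 5. Eif2s1, the alpha subunit of eIF2 that the stress kinases phosphorylate, fell by 0.67 ± 0.16 at ERY-I (adjusted p = 0.00401), to 129.9 to 194 CPM, and at ERY-II changed by 0.02 ± 0.19 with TMM (not called) and by -1.35 with library totals, with 62.4, 60.2, 65.0 and 51.3 CPM. Eif2s2 was not called at either step (-0.20 ± 0.26 and 0.79 ± 0.42), and with library totals it stood at -0.61 and -0.64.

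In the cap-binding and helicase group Eif4b, the helicase cofactor, had 1473, 1427 and 1422 CPM in BFU-E, 1368, 1361, 1356, 954 and 874 CPM in CFU-E, 291 to 600.4 CPM (median 567) in ERY-I and 80.1, 84.5, 67.5 and 30.3 CPM in ERY-II. Each of these stages lay wholly below the one before. Its log2 fold change was -0.92 ± 0.15 at ERY-I (adjusted p = 0.000383) and -1.598 ± 0.16 at ERY-II (adjusted p = 4.71e-05). The helicase genes Eif4a1 and Eif4a2 fell at both steps, Eif4a1 by 0.88 ± 0.19 and 0.57 ± 0.17 (adjusted p = 0.00238 and 0.0185) and Eif4a2 by 0.74 ± 0.26 and 1.25 ± 0.33 (adjusted p = 0.0327 and 0.0103). Eif4a1 had risen at CFU-E by 0.85 ± 0.22, from 427, 439 and 434 CPM in BFU-E to 576 to 889 CPM, where Eif4a2 was not called. In CFU-E and ERY-I the share of Eif4a2 in the pair's counts differed between library sets without overlap. In Y-positive libraries it was 35.0 to 36.3% in BFU-E, 26.4 to 27.9% in CFU-E, 31.4 to 32.6% in ERY-I and 33.7 to 60.8% in ERY-V. In Xist-positive libraries it was 13.4 and 13.5% in CFU-E, 9.95 to 17.7% in ERY-I, 6.83 to 14.2% in ERY-III, 9.16 to 21.1% in ERY-IV and 2.63 to 35.3% in ERY-V, where the sets overlapped. Among WT knockout-series libraries, all Y-positive, BFU-E had 30.8 to 31.5%, ERY-III-VI 17.5 to 22.4% and ERY-V-VI 17.9 to 31.6%. BFU-E holds only Y-positive and ERY-III only Xist-positive libraries, so stage and library set cannot be told apart between these 2 stages. Eif4e, the cap-binding protein itself, fell by 0.45 ± 0.14 at ERY-I (adjusted p = 0.0195), from 109 to 166 CPM to 61.5 to 94.7 CPM, and was not called at ERY-II (26.1 to 36.9 CPM).

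Of the 3 4E-BP genes Eif4ebp1 was called lower at ERY-I, Eif4ebp3 higher at ERY-I and ERY-II, and Eif4ebp2 at neither step. Differences between these genes were not tested. Eif4ebp1 went from 112, 118, 119, 177 and 180.0 CPM in CFU-E to 44.7 to 84.0 CPM (median 51.8) in ERY-I, a fall of 0.99 ± 0.20 (adjusted p = 0.00159), and to 4.74, 6.61, 23.9 and 13.9 CPM in ERY-II. Eif4ebp2 went from 57.2 to 134 CPM in CFU-E to 42.9 to 93.7 CPM in ERY-I and 15.8 to 32.8 CPM in ERY-II. Eif4ebp3 stood at 1.93 to 10.1 CPM in CFU-E, 8.57 to 16.9 CPM in ERY-I and 4.47 to 11.7 CPM in ERY-II, with overlap at both steps. Its fold changes were 1.14 ± 0.37 and 0.85 ± 0.29 with TMM (adjusted p = 0.0228 and 0.031) and 0.72 and -0.39 with library totals, neither called. In ERY-II, ERY-III and ERY-IV the replicates 1 and 2 that were low in Eif3c were also low in Eif4ebp1, so that Eif4ebp2 took 39.8 to 87.4% of the pair's counts in ERY-II.

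**Figure D4:**
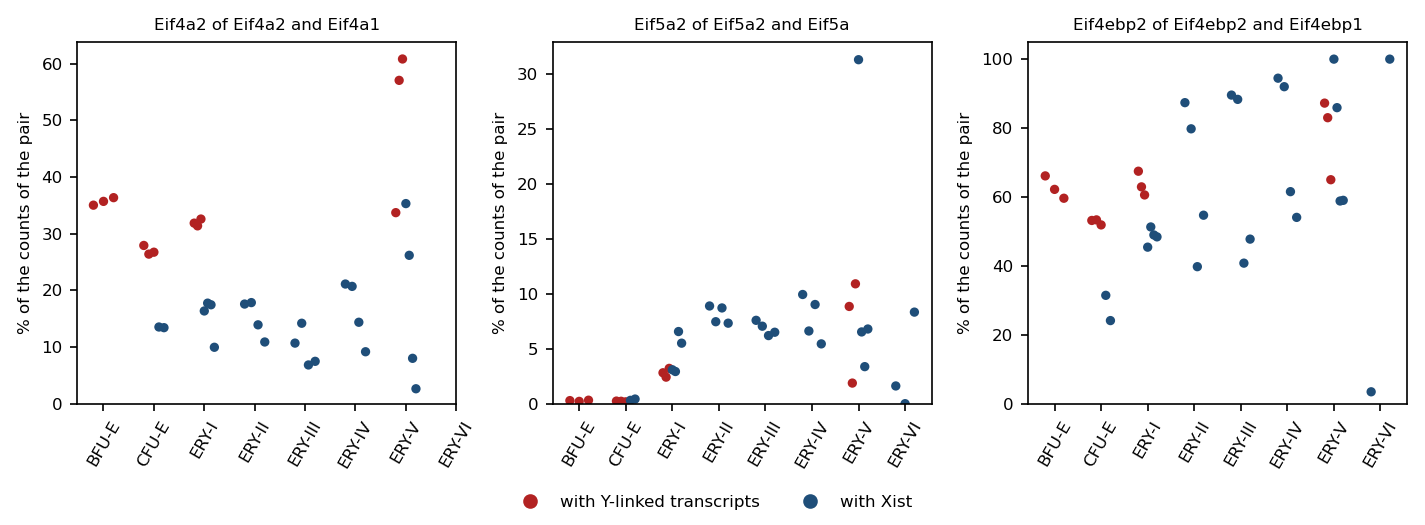
Share of the counts of a gene pair taken by its first gene, in percent, for Eif4a2 with Eif4a1, Eif5a2 with Eif5a and Eif4ebp2 with Eif4ebp1, in each library with enough counts of the pair. Libraries are coloured by set, and the Eif4a2 share is 26.4 to 27.9% in Y-positive and 13.4 and 13.5% in Xist-positive CFU-E libraries. Eif5a2 rises from 0.209 to 0.316% in BFU-E to 7.33 to 8.89% in ERY-II.

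From ERY-II to ERY-III no member of 44 tested was called in edgeR (0.185% of all genes rose and 0.0% fell). Of the 44, 7 had an unadjusted p under 0.05 in edgeR, as did 949 of all 7574 genes tested. DESeq2 called 0 of the 33 members it tested. Library totals moved the median of all genes from -0.02 to 0.15. Same-numbered libraries of these gates deviated together, and with the replicate number as a block 3 members were called (10.3% of all genes), Eif4a3, an RNA helicase of the exon junction complex, up by 0.53 ± 0.15 and Eif5 and Eif5b down by 0.70 ± 0.17 and 0.48 ± 0.14 (adjusted p = 0.026, 0.0119 and 0.0306). At ERY-IV 3 of 45 rose (10.3% of all genes) and 3 fell (3.29%). With the block 11 were called (25.2% of all genes), 3 up and 8 down. Beside Eif5 the members that rose were Eif5b (0.92 ± 0.19, adjusted p = 0.0108) and Eif4ebp2 (1.04 ± 0.22, adjusted p = 0.0118), whose CPM ranges overlapped between the gates, 72.4 to 147 against 103 to 141 for Eif5b and 14.1 to 28.9 against 21.6 to 34.5 for Eif4ebp2. With library totals neither was called (0.27 for Eif5b and 0.40 for Eif4ebp2, adjusted p = 0.437 and 0.327). Those that fell were Eif2b4 (-0.95 ± 0.23), Eif6 (-0.92 ± 0.27) and Eif4e (-0.66 ± 0.18), and Eif6, whose product keeps ribosomal subunits apart, went from 20.8, 19.3, 19.2 and 11.2 CPM to 7.56, 6.44, 3.26 and 7.19 CPM. The count fell to 2 to 4 without any 1 library, with Eif6 and Eif4e lost in 7 of 8 omissions and Eif2b4 in 6 of 8. Library totals gave 1 member up (2.16% of all genes) and 10 down (6.6%), and moved the median of all genes from -0.07 to -0.63.

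At ERY-V 1 member of 42, Eif5, rose and 0 fell, where 6.49% of all genes rose and 2.33% fell. The count was 2 without ERY-V replicate 6 or 7, and library totals moved the median of all genes from 0.06 to -0.72. At ERY-VI 1 of 34, Eif1, rose and 0 fell, where 3.32% of all genes rose and 4.51% fell. The other 15 members did not pass the filter on low counts. Library totals gave 0 up (0.139% of all genes) and 15 down (44.0%), with the median of all genes at -2.24 in place of -0.34. Depth was a limit in ERY-VI, where Eif4a2 had 1 count in 1 library and 0 in the other 3 and no eIF2B subunit passed the filter.

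The WT libraries of the knockout series give part of this course again with other gates. CFU-E against BFU-E had 36 members up and 3 down of 46 (34.5 and 36.0% of all genes), or 32 and 7 with library totals (26.4 and 44.3%). All 9 members of the eIF2 and eIF2B group rose, among them Eif2b1 (0.77 ± 0.06) and Eif2s2 (0.66 ± 0.03). ERY-I-II against CFU-E had 11 up and 27 down of 45 (39.9 and 41.9%), or 3 and 38 with library totals (24.1 and 60.9%). With TMM scaling 3 of 12 eIF3 members rose at this step and 7 fell, and of 5 eIF2B subunits 1 rose and 3 fell. In the stage series no eIF3 subunit was called higher at ERY-I or ERY-II. ERY-III-VI against ERY-I-II had 6 up and 32 down of 45 (35.3 and 38.1%), with all 12 eIF3 members tested and all 5 eIF2B subunits among those down. ERY-V-VI against ERY-III-VI had 4 up and 12 down of 45 (18.4 and 12.9%), or 1 and 39 with library totals (5.02 and 67.8%). Neighbouring comparisons share the libraries of the gate between them, here and in the stage series. With library totals the median of all genes moved from -0.03 to -0.13, from -0.03 to -0.47, from -0.07 to -0.78 and from -0.01 to -1.16 at these 4 steps.

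The members that led in the stage series stood out in WT too. Eif5 was at 377, 385 and 394 CPM in BFU-E, 491, 514 and 529 in CFU-E, 488, 481 and 489 in ERY-I-II, 1041, 1019.8 and 1026 in ERY-III-VI and 3779, 3659 and 3661 CPM in ERY-V-VI. The last 2 steps were rises of 1.80 ± 0.03 and 3.001 ± 0.03 (adjusted p = 2.13e-34 and 5.76e-18), and the step to ERY-I-II was 0.36 ± 0.03 with TMM but -0.07 with library totals. Eif5a2 went from 2.53, 3.23 and 3.24 CPM in CFU-E to 24.9, 31.6 and 30.7 in ERY-I-II and 35.9, 38.0 and 38.8 CPM in ERY-III-VI, with rises of 3.72 ± 0.16 and 1.07 ± 0.11. Eif1a fell by 2.22 ± 0.08 and 1.98 ± 0.24 at the same steps, and Eif1 rose by 1.14 ± 0.04 and 1.05 ± 0.04. Eif4ebp1 fell by 1.92 ± 0.14 at ERY-III-VI while Eif4ebp2 was not called (0.15 ± 0.09 with TMM, -0.57 with library totals). At ERY-V-VI Eif4ebp2 was at 47.0, 48.2 and 40.2 CPM after 45.8, 48.6 and 44.2, a TMM fold change of 1.11 ± 0.14 that was -0.04 with library totals, and Eif1 rose by 0.59 ± 0.07 with TMM and fell by 0.57 with library totals.

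Other genes of the translation machinery, a list of 39 kinases, phosphatases, poly(A)-binding, elongation and recycling factors, held calls in both directions at the same steps. At ERY-I 10 of 39 rose (25.6%, against 25.4% of all genes) and 15 fell (38.5%, against 20.9%). At ERY-II 12 rose (30.8%, against 20.2%) and 17 fell (43.6%, against 25.1%). With library totals 6 rose and 21 fell at ERY-I (16.2 and 33.2% of all genes), and 3 rose and 31 fell at ERY-II (4.1 and 67.8%). Eif2ak1, the heme-regulated eIF2 kinase, rose by 2.20 ± 0.29 and 2.48 ± 0.34 at these steps, and Ppp1r15a, the phosphatase subunit that reverses its mark, by 3.19 ± 0.47 and 3.18 ± 0.35. Pabpc1, the poly(A)-binding protein that eIF4G contacts, rose by 2.86 ± 0.32 at ERY-II, 1.51 ± 0.37 at ERY-IV and 2.33 ± 0.45 at ERY-V. Eif5 also rose at each of these steps. Eif5 was called higher at CFU-E and ERY-I too, where Pabpc1 was not called (-0.41 ± 0.18 at CFU-E). Denr, a recycling factor, fell by 1.20 ± 0.16 and 2.02 ± 0.25 at ERY-I and ERY-II, and Bzw2, an eIF5 mimic protein, by 1.76 ± 0.28 and 2.06 ± 0.53.

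GS-KO was compared with WT within each gate. Glul itself was lower in GS-KO in every gate without overlap, at 120.0 to 125 CPM in WT and 96.1 to 101 in GS-KO in BFU-E, 84.2 to 89.7 and 34.7 to 37.5 in CFU-E, 104 to 113 and 12.8 to 16.6 in ERY-I-II, 152 to 167 and 17.0 to 22.5 in ERY-III-VI, and 246 to 268 and 22.3 to 24.0 in ERY-V-VI. Markers of other cells moved with the genotype. All 9 neutrophil markers were higher in GS-KO without overlap in all 5 gates, their sum going from 26.7 to 36.2 CPM in WT to 7055 to 7131 CPM in GS-KO in BFU-E, from 25.9 to 29.0 to 4331 to 4402 in CFU-E, from 108 to 116 to 6214 to 6308 in ERY-I-II, from 253 to 256 to 9969 to 10042 in ERY-III-VI and from 612 to 657 to 13396 to 13579.9 in ERY-V-VI. All 7 B cell markers were higher without overlap in each gate, and so were all 9 monocyte and macrophage markers in 4 gates and 8 of them in ERY-V-VI. The erythroid sum was higher in GS-KO in 4 gates, going from 839 to 852 CPM in WT to 1799 to 1842 in BFU-E, from 1576 to 1613 to 2146 to 2176 in CFU-E, from 24334 to 24413 to 41564 to 41801 in ERY-I-II and from 67521 to 67942 to 72651 to 74314 in ERY-III-VI. The ERY-V-VI sum was lower, at 89629.8 to 90753 CPM in GS-KO and 196955 to 199627 CPM in WT. Progenitor markers summed to 8.60 to 10.6 CPM in WT ERY-III-VI libraries and to 59.2 to 71.1 CPM in GS-KO ones. For the last gate, ERY-V-VI, the sums were 7.94 to 15.3 and 89.4 to 95.0 CPM. The part of these cells in the differences below was not tested.

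In the progenitor gates the member differences were small. In BFU-E 14 of 46 members were lower and 2 higher in GS-KO, where 8.59% of all genes were lower and 15.4% higher. The lower ones included 8 of 12 eIF3 members, and the largest called difference was that of Eif4ebp1, at -0.24 ± 0.06 (adjusted p = 0.00276). Its values were 96.5, 89.1 and 86.7 CPM in WT and 80.9, 69.0 and 76.1 CPM in GS-KO. In CFU-E 9 of 46 were lower and 2 higher (11.5 and 17.9% of all genes), and without WT CFU-E replicate 3 the count was 6. Apart from Eif4e3 the called differences there ran from -0.15 to 0.09.

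In ERY-I-II 27 of 46 members were lower and 4 higher, where 17.5% of all genes were lower and 22.9% higher. Library totals moved the median of all genes from -0.01 to -0.13. The lower ones held 11 of 12 eIF3 members, with Eif3e, a subunit of the complex, at -0.42 ± 0.05 (adjusted p = 1.33e-10) and Eif2b5, the catalytic subunit of eIF2B, at -0.44 ± 0.08 (adjusted p = 1.06e-06). Eif2b5 stood at 85.8, 93.6 and 100.3 CPM in WT and at 60.7, 64.5 and 64.2 CPM in GS-KO. Eif5 went the other way, from 488, 481 and 489 CPM in WT to 862, 851 and 821 CPM in GS-KO (0.92 ± 0.03, adjusted p = 5.83e-44). In this gate the differences of the other called members were within 0.45 on the log2 scale, except for Eif4e3. Eif4ebp1 was lower by 0.40 ± 0.11 (adjusted p = 0.00173) and lost its call without GS-KO ERY-I-II replicate 3 (adjusted p = 0.0533).

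In ERY-III-VI the members were split, with 13 of 46 higher and 9 lower (31.4 and 24.5% of all genes), or 19 and 3 with library totals (39.6 and 13.4%), which moved the median of all genes from 0.05 to 0.21. Eif1a was at 2.19, 2.27 and 3.18 CPM in WT and at 12.5, 7.84 and 9.41 in GS-KO (1.86 ± 0.29, adjusted p = 2.39e-07), and Eif4ebp1 at 7.09, 8.24 and 8.16 against 12.7, 17.6 and 12.6 CPM (0.70 ± 0.20, adjusted p = 0.00285). Both are members that fall with maturation in WT. Eif5a2 and Eif1, which rise with it, were lower, Eif5a2 at 20.02, 25.2 and 28.2 CPM against 35.9, 38.0 and 38.8 in WT (-0.79 ± 0.12, adjusted p = 2.24e-07) and Eif1 at 231, 223 and 213 against 275, 287 and 266 CPM (-0.47 ± 0.04, adjusted p = 3.09e-14). Eif5 was higher by 0.15 ± 0.03 (1281, 1273 and 1275 CPM against 1041, 1019.8 and 1026). Eif4enif1, which carries eIF4E into the nucleus, was lower by 0.46 ± 0.04 and Eif4g3, a scaffold gene, higher by 0.79 ± 0.08.

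In ERY-V-VI 13 of 46 were higher and 7 lower (22.4 and 20.5% of all genes), with 8 of 12 eIF3 members higher and 2 lower. With library totals 42 were higher (76.8% of all genes) and 1, Eif5, lower (3.84%), and the median of all genes moved from 0.15 to 1.44. Eif5 fell from 3779, 3659 and 3661 CPM in WT to 1799, 1733 and 1692 CPM in GS-KO (-2.38 ± 0.03 with TMM, -1.08 with library totals, adjusted p = 8.38e-19). Eif3g stood at 11.4, 14.7 and 15.01 CPM in WT and at 87.1, 79.0 and 86.7 CPM in GS-KO (1.33 ± 0.19, adjusted p = 3.55e-05), and Eif4b at 47.7, 42.8 and 59.6 against 236, 232 and 257 CPM (0.96 ± 0.12, adjusted p = 8.35e-06). Eif1 was lower by 1.06 ± 0.08 with TMM and higher by 0.24 with library totals, and Eif4ebp2 lower by 1.17 ± 0.16 and higher by 0.13. The count was 13 without GS-KO ERY-V-VI replicate 1 and again without replicate 2.

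**Figure D5:**
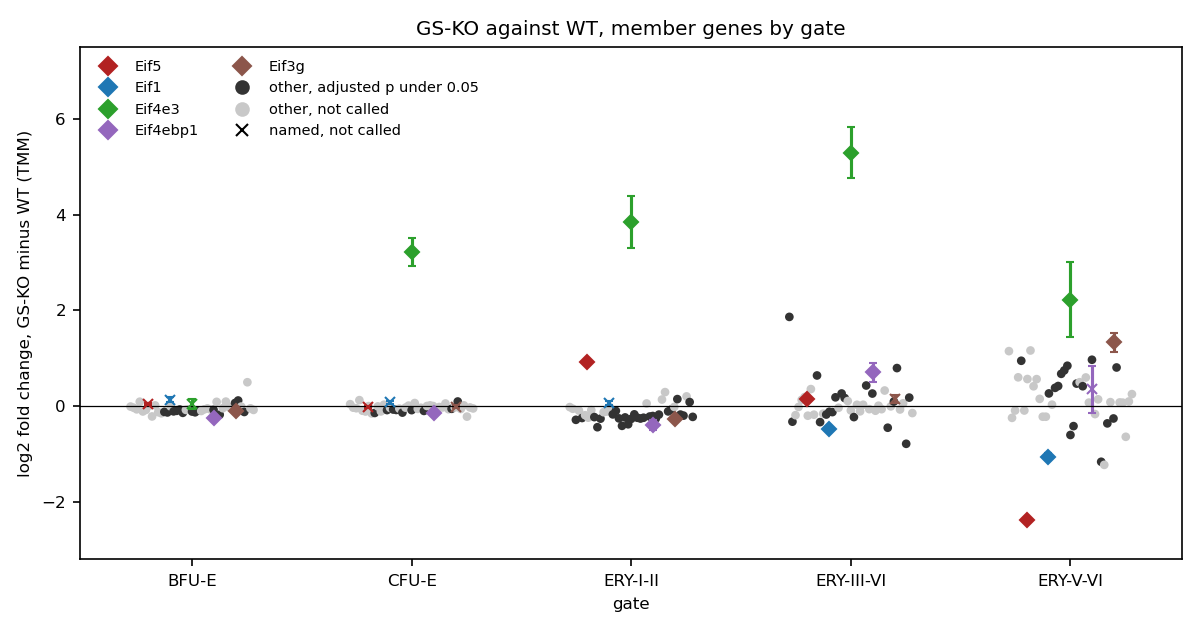
Log2 fold change of GS-KO against WT (TMM scale) for each member tested, by gate, with Eif5, Eif1, Eif4e3, Eif4ebp1 and Eif3g coloured with SE bars (a cross where not called), other called members dark and the rest grey. Eif5 stands at 0.92 in ERY-I-II and at -2.38 in ERY-V-VI, and Eif4e3 lies above 2 in every gate from CFU-E on.

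The Eif5 difference thus changed sign between gates, and 37 of 46 members had a GS-KO difference that depended on the gate (test of the genotype by gate interaction over 30 libraries, 61.2% of all genes). As a share of member counts Eif5 held 3.84 to 3.95% in WT and 7.46 to 7.79% in GS-KO in ERY-I-II, 14.4 to 14.7% and 16.1 to 16.3% in ERY-III-VI, and 59.5 to 61.1% and 21.2 to 22.7% in ERY-V-VI. In BFU-E it held 2.23 to 2.34% and 2.40 to 2.46%, and in CFU-E 2.51 to 2.69% and 2.60 to 2.70%. Pabpc1 had the same signs, 0.82 ± 0.01 in ERY-I-II and -2.67 ± 0.01 in ERY-V-VI, and Eif2ak1 and Ppp1r15a were at 0.39 ± 0.03 and 0.93 ± 0.03 in ERY-I-II and at -1.65 ± 0.04 and -1.67 ± 0.04 in ERY-V-VI. These sizes are on the TMM scale and depend on it, as library totals moved the median of all genes in ERY-V-VI from 0.15 to 1.44. Of the list of 39 other genes 5 were higher (12.8%, against 22.9% of all genes) and 14 lower (35.9%, against 17.5%) in ERY-I-II. With library totals, which moved the median of all genes from -0.01 to -0.13, 3 were higher and 22 lower. The share of all genes called under that scaling in this gate is not given here. In ERY-V-VI 9 were higher (23.1%, against 22.4%) and 12 lower (30.8%, against 20.5%), or 33 and 4 with library totals (76.8 and 3.84% of all genes).

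Eif4e3 had the largest GS-KO rise of any member in the 4 gates after BFU-E. Its counts were 7, 3 and 7 in WT and 37, 65 and 115 in GS-KO in CFU-E (3.22 ± 0.29, adjusted p = 9.58e-11), and 0, 4 and 3 against 18, 28 and 15 in ERY-I-II (3.84 ± 0.55, adjusted p = 1.02e-08). They were 0, 3 and 1 against 69, 44 and 55 in ERY-III-VI (5.29 ± 0.53, adjusted p = 8.69e-13) and 6, 3 and 0 against 35, 68 and 79 in ERY-V-VI (2.22 ± 0.78, adjusted p = 0.0306). With so few WT counts the fitted sizes are rough, and in ERY-V-VI the call ended without any 1 of the 3 GS-KO libraries (adjusted p = 0.0922 to 0.128). In BFU-E, where WT cells have the gene, it stood at 25.6 to 31.9 CPM in WT and 29.3 to 32.0 CPM in GS-KO and did not pass the test. These are the libraries with the higher neutrophil and macrophage marker sums given above.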

How the data were processed

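Total RNA libraries were made with the SMARTer Stranded Total RNA-seq Pico kit, per the labels' protocols. The authors deposited raw read counts per gene as a table for each series. Per the submitters' processing notes, STAR 2.5.2b, HTSeq and the mm10 build were used. Which annotation and strand setting the counting used is not given in the sources used here, so reads of overlapping genes may not be separable.

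Each comparison was fitted on all its genes with edgeR 4.0.16 in R 4.3.3, using only the 2 groups compared: filterByExpr (minimum count 10, minimum total count 15), TMM scaling, the quasi-likelihood F test and Benjamini-Hochberg adjustment, with calls at an adjusted p under 0.05. SE is the size of the log2 fold change divided by the root of F. The interaction test used all 30 knockout libraries. The procedure was also run on simulated independent libraries for 2 of the comparisons. These held no technical replicates, library sets or shifts in composition, so the run cannot speak to those limits. CPM uses library totals, which weigh rising globin counts, so fold changes under library totals stand beside TMM where they differ in sign. Total counts limit precision in the late gates.

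Replicates of a group differed by more than sampling noise in every pair, and each library was kept as 1 sample. This does not show that they are separate animals. The median chi-square over degrees of freedom was 2.06 in knockout pairs and 2.94 in Y-positive stage pairs, against 44.8 in Xist-positive pairs and 126 in mixed pairs. Spread in the Y-positive triplicates, and so in every knockout p-value, may be technical. No label says that replicate numbers mark a shared animal or batch, so pairing was read from the data. Same-numbered libraries deviated together at ERY-I against CFU-E (5 pairs, r = 0.31 to 0.44), ERY-III against ERY-II (4 pairs, r = 0.60 to 0.78) and ERY-IV against ERY-III (4 pairs, r = 0.34 to 0.63), and not in the other comparisons. At ERY-I 1 of 5 CFU-E libraries had its highest r with its own number, against 3 of 4 libraries at ERY-III and at ERY-IV. In CFU-E and ERY-I replicates 1 to 3 are Y-positive and the later ones Xist-positive, so number and library set cannot be told apart there.

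Named are Eif1, Eif2s1, Eif4a1, Eif4a2, Eif4e, Eif4e3, Eif4ebp1, Eif4ebp2, Eif5, Eif5a and Eif6, members among the 5 largest called rises or falls of a comparison, and up to 6 genes of the pathway list. Eif1ax, Eif3a and Eif3c were added after their values were seen, and so were the members called only with a replicate block. The members, the gene lists and the tests were chosen with earlier results of these data known. Alternatives were library totals, DESeq2 1.42.0, no filter on low counts, globins and the 10 most abundant genes left out, a replicate block, Y-positive triplicates summed, library sets alone, and each library left out. The library set as a term was added after seeing the data.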

Additional observations from a re-analysis of the deposited data

Results flagged for a closer look

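For 13 members named in the knockout comparisons the GS-KO difference depended on the gate, by edgeR's test of the genotype by gate interaction with Benjamini-Hochberg adjustment over 12051 genes. The adjusted p was 8.91e-52 for Eif5, which was higher in ERY-I-II and lower in ERY-V-VI. It was 2.57e-21 for Eif1, 2.34e-16 for Eif4b, 5.14e-14 for Eif3g, 1.79e-13 for Eif4ebp2 and 2.68e-13 for Eif4e3. It was 4.18e-06 for Eif1a, 2.3e-05 for Eif5a2 and 0.00816 for Eif4ebp1. It was 2.35e-12 for Eif4enif1, 7.66e-08 for Eif3e, 1.32e-06 for Eif4g3 and 1.22e-05 for Eif2b5.

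Single libraries stood far from the rest of their group for 10 members. ERY-VI replicate 4 was the highest of its gate at 4.91 CPM of Eif5a2, 14.1 CPM of Eif4ebp2, 1.23 CPM of Eif2b1, 19.01 CPM of Eif3g, 37.4 CPM of Eif5b and 8.58 CPM of Eif6. ERY-VI replicate 3 was the highest at 15.7 CPM of Eif4ebp1, and replicate 1 at 0.294 CPM of Eif4a2, which is 1 count. ERY-I replicate 4 was the highest at 429 CPM of Eif4a1 and 94.7 CPM of Eif4e. ERY-V replicate 3 was the highest at 18.3 CPM of Eif4e and CFU-E replicate 4 at 522 CPM of Eif3g. ERY-III replicate 4 was the lowest at 1.98 CPM of Eif2b1 and 11.2 CPM of Eif6. Over the 146 groups tested, chance flags about 1 in 20.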

How the results depend on the processing

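Of the 71 called changes of named members 7 changed direction, all under library totals without TMM: Eif1 at ERY-II (-0.0305), at ERY-VI (-0.0326), at WT ERY-V-VI (-0.57) and in GS-KO ERY-V-VI (0.24), Eif5 at WT ERY-I-II (-0.0741), and Eif4ebp2 at WT ERY-V-VI (-0.0397) and in GS-KO ERY-V-VI (0.13). Counts of members called went to 41 at ERY-II, 11 at ERY-IV, 15 at ERY-VI, 40 at WT ERY-V-VI and 43 in GS-KO ERY-V-VI under the same scaling. The shares of all genes under that scaling stand with each comparison above. With a replicate block the count was 35 at CFU-E (67.5% of all genes), 3 at ERY-III (10.3%), 11 at ERY-IV (25.2%) and 3 at ERY-V (16.8%). At ERY-I the block gave 5 members up and 30 down (54.6% of all genes). At ERY-III and ERY-IV the numbers pair the libraries, and at ERY-I number and library set cannot be told apart. At CFU-E and ERY-V the libraries share only a number, as they do in GS-KO ERY-V-VI, where the block gave an adjusted p of 0.063 for Eif4e3. The block ended no other call of a named member. With each Y-positive triplicate summed the count was 18 at ERY-I (30.3% of all genes) and 0 at ERY-VI (1.82%), where fewer libraries enter the fit. At CFU-E this leaves 1 BFU-E sample, and the member median was 0.55. Y-positive libraries alone gave 35 at CFU-E and 44 at ERY-I, where 67.4 and 79.1% of all genes were called. DESeq2 gave 2 at ERY-V, 2 at ERY-VI and 7 in GS-KO CFU-E, and the shares of all genes it called are not given here. At ERY-VI the count was 0 with globins and the 10 most abundant genes left out. It was also 0 with Xist-positive libraries alone (1.87% of all genes) and with the library set as a term (2.09%). Where no cause is named it was not tested.

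Leaving out each library in turn gave 8 to 24 members at CFU-E, 2 to 4 at ERY-IV, 1 to 2 at ERY-V, 0 to 2 at ERY-VI, 6 to 13 in GS-KO CFU-E and 13 to 22 in GS-KO ERY-V-VI. The shares of all genes called with a library left out are not given here. The ERY-VI count was 0 without ERY-V replicates 1 to 5 or ERY-VI replicate 2 or 3. Of these changes, 492 values with a library left out and 407 under other settings kept their direction and call. Calls were lost in 56 values with a library left out and in 21 others. These 21 were at CFU-E, ERY-I, ERY-IV and ERY-VI of the stage series, apart from Eif4e3 in GS-KO ERY-V-VI. Low counts limited ERY-VI most, where 34 members could be tested.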
